A study of Rattus norvegicus with 6 samples.

Results

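The genes described here encode the subunits of integrins and laminins, chosen by name from the deposited count table as protein-coding rows whose symbols are those of an integrin alpha or beta subunit or a laminin chain. The rule matched 35 of the 20609 genes in the table, comprising 17 integrin alpha, 7 integrin beta and 11 laminin genes. Itgb5 and Itgad are not analysed here. RNA was from PC12, a cell line derived from a rat pheochromocytoma, with 3 libraries from cells that received a control plasmid (Ctrl) and 3 from cells that overexpressed PCBP-1, a poly(rC)-binding protein (PCBP1-OE). Both groups were transfected, and the methods name an EGFP-tagged PCBP1 plasmid introduced with Lipofectamine, but the study also describes the overexpression as stable, so it is unclear whether the cells were transfected transiently or selected. The content of the control plasmid and the harvest time for RNA-seq were not found in the sources used here, and Pcbp1 itself was not analysed in these libraries. The study calls the replicates biological but does not describe how the cultures were separated, so the p-values measure the spread between these libraries.

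Integrins are receptors of the cell surface, each made of an alpha and a beta subunit, that hold a cell to the extracellular matrix and signal through the talin and kindlin adaptors. Laminins are cross-shaped trimers of an alpha, a beta and a gamma chain and form the polymer of the basement membrane. In cells of neural crest origin such as chromaffin and Schwann cells, laminin-binding integrins mediate attachment, process outgrowth and contact with the basement membrane.

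The library totals ranged from 19730209 to 22315623 counts on genes, and the integrin and laminin genes together took 0.277% to 0.294% of them. The label PC12 was checked against markers of chromaffin cells, of which 9 were matched in the table. Dbh, which converts dopamine to noradrenaline, had 0 to 5 counts per library, the granule protein gene Chga 0 to 3 and Chgb 0 to 9, and Syp 4 to 12. Th, the rate-limiting enzyme of catecholamine synthesis, had 141 to 185 counts and the secretogranin gene Scg2 2607 to 3553. In contrast, the neural crest and glial genes Sox10, with 7160 to 9007 counts, and S100b, with 4143 to 5339, were abundant. So several defining chromaffin markers were near absent in both groups, and the cells are called PC12 below only as labelled. Over the 33 marker genes matched for 6 cell types, 19 had enough counts and 0 were called by edgeR's quasi-likelihood test, against 9.45% of all genes tested. The calls were 1 with DESeq2, 0 with limma-voom and 4 without Ctrl replicate 3, against 11.2%, 9.48% and 22.3% of all genes. In edgeR 6 had an unadjusted p under 0.05. The largest of these 6, that of S100b, ranked 2779 among the 12624 genes tested. All 6, namely Scg2, Pdgfra, Sox10, S100b, Cd14 and Epcam, were lower in PCBP1-OE, with changes of -8.04% to -13.6%.

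The summed level of the 6 Schwann cell and glia markers was 620 to 665 CPM (counts scaled by normalized library size) in Ctrl and 587 to 607 CPM in PCBP1-OE, so the groups did not overlap. Sox10 and S100b made up nearly all of this sum. The 4 fibroblast markers matched, nearly all from Pdgfra, summed to 225 to 230 CPM and 200 to 212 CPM, again without overlap. Epcam, with 997 to 1198 counts, made up nearly all of the epithelium markers. The summed chromaffin markers were at 152 to 182 CPM and 140 to 154 CPM, the epithelium markers at 53.6 to 59.2 CPM and 49.6 to 55.0 CPM, and the endothelium markers at 4.74 to 6.58 CPM and 5.72 to 6.64 CPM, all overlapping between groups. Nearly all of the chromaffin sum came from Scg2. No matched marker was at 0 in all 6 libraries. In bulk RNA, fewer cells of a type and less RNA per cell cannot be told apart, and the part of such markers in the results below was not tested.

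Of the 35 genes, 28 had enough counts for a test, namely 12 alpha, 6 beta and 10 laminin genes. The other 7 stayed at 0 to 11 counts in each library: the collagen-receptor subunits Itga2 and Itga11, Itga9, the leukocyte subunits Itgal and Itgam, Itgb3, and the laminin chain Lamc3, which had 1 count in all libraries together. No fold change is given for these. Transcripts of every subunit were present for 15 of the 24 integrin heterodimers of mammals and for 12 of 15 laminin trimers, where present means that each subunit had enough counts for a test. These are pairs of transcripts, and assembled proteins were not measured. All of the missing laminin trimers need Lamc3, and the pairs of Itgav with Itgb5 and of Itgad with Itgb2 could not be judged. Itgb1, the shared partner of most alpha subunits, completed 9 of its 12 pairs: with Itga1 and Itga10, which bind collagen, Itga3, Itga6 and Itga7, which bind laminin, Itga5 and Itga8, which bind fibronectin-type RGD ligands, Itga4 and Itgav. The other 6 present pairs were Itgav with Itgb6 and with Itgb8, Itga6 with Itgb4, Itga4 and Itgae with Itgb7, and Itgax with Itgb2. The last of these is uncertain, because of the naming of Itgax described below.

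**Figure D1:**
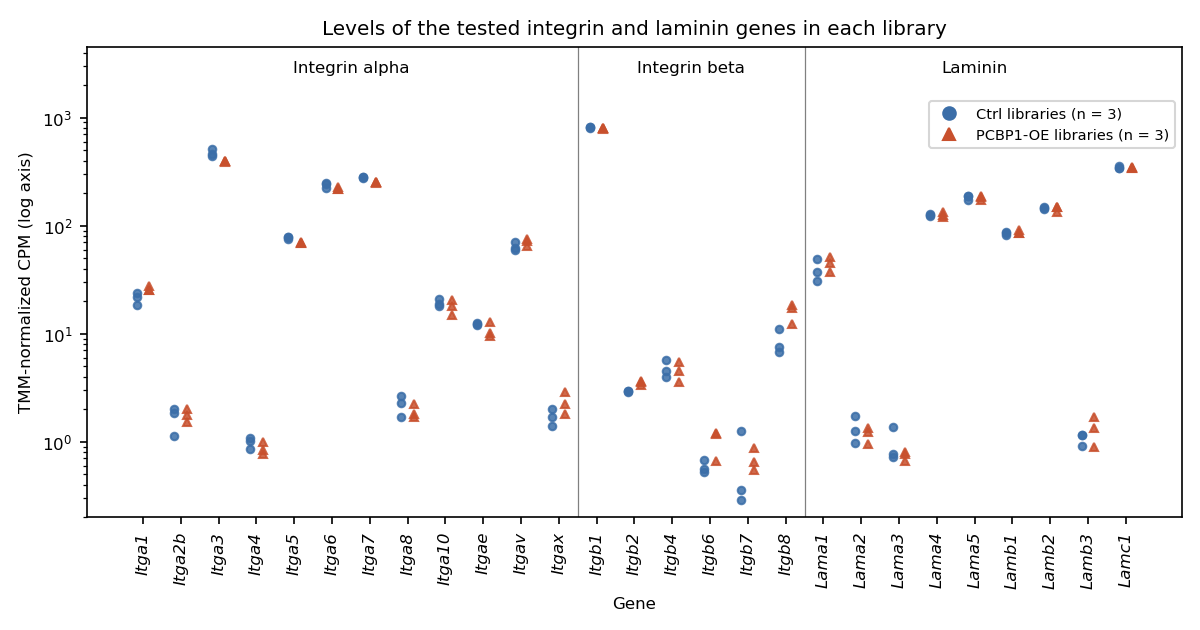
TMM-normalized CPM on a log axis for 27 of the 28 tested integrin and laminin genes, with 1 circle for each Ctrl library and 1 triangle for each PCBP1-OE library. The genes are not scaled by length, so heights compare libraries within a gene: Itgb8 triangles (12.2 to 18.3) sit above its circles (6.71 to 10.96), and Itga3 triangles (390 to 397) below its circles (439 to 507).

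To ask which of these genes differed with PCBP-1 overexpression, the 3 PCBP1-OE libraries were compared with the 3 Ctrl libraries in a fit over all 12624 genes with enough counts. Itgb8, whose product pairs with integrin alpha V and binds latent TGF-beta, rose, and the laminin-receptor subunits Itga3 and Itga7 fell, while 0 of the 10 laminin genes tested were called. With an FDR of 0.05 or less as the call, 3 of the 28 tested genes (10.7%) were called, against 9.45% of all genes tested, so the share was near the background. The call was higher for 1 gene, against 4.45% of all genes, and lower for 2 genes, against 5% of all genes. At an unadjusted p under 0.05 there were 6 of the 28, and such p-values were common over all genes. The largest of these 6, that of Itgb6, ranked 3274 among the 12624 genes tested. None of the 28 was called with a change of at least 2-fold in edgeR, against 0.19% of all genes, also with DESeq2 and limma-voom, although Itgb8 passed 2-fold without Ctrl replicate 1 and without PCBP1-OE replicate 1. The groups did not overlap in 7 of the 28 genes (25.0%), against 30.6% of all genes. Over all genes 1193 were called with all libraries, 2860 without Ctrl replicate 3 and 48 without Ctrl replicate 2. The median log2 fold change (log2FC, PCBP1-OE minus Ctrl) was -0.016 over the 28 genes and 0.0029 over all genes tested, with 13 of the 28 above 0 and 15 below.

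Itgb8 (ENSRNOG00000006569, chromosome 6) was at 10.96, 6.71 and 7.58 CPM in Ctrl and 12.2, 17.4 and 18.3 CPM in PCBP1-OE, from 140 to 358 counts per library. Ctrl replicate 1 was the highest control and PCBP1-OE replicate 1 the lowest overexpressing library, and the groups did not overlap. The means were 8.42 ± 2.25 and 16.0 ± 3.28 CPM (SD, n = 3 each), 0.92 on the log2 scale with SE 0.18 (95% interval 0.53 to 1.32, FDR = 0.0134). FDR is here the Benjamini-Hochberg value over all genes tested in edgeR. The call was lost without Ctrl replicate 2 (FDR = 0.0891) or PCBP1-OE replicate 2 (0.0644). It was also lost with a term for the replicate number, the replicate block (0.113). Over 14 alternatives the FDR ran from 2.9e-11 to 0.113, and in all of them the gene was higher in PCBP1-OE. The lowest value came with no filter, and the next lowest was 3.0e-05 with DESeq2.

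Itga3 (ENSRNOG00000004276, chromosome 10) encodes the alpha subunit of a receptor for laminins with alpha 3 and alpha 5 chains. Its level was 507, 457 and 439 CPM in Ctrl and 397, 397 and 390 CPM in PCBP1-OE, so every PCBP1-OE library lay below every control, and Ctrl replicate 1 stood highest. The means of 468 ± 34.9 and 395 ± 3.90 CPM (SD, n = 3 each) gave a log2FC of -0.25 (SE 0.052, 95% interval -0.36 to -0.13, FDR = 0.0178). Of the 6 fits that leave out 1 library, only that without Ctrl replicate 3 kept the call. The FDR was 0.0699 and 0.0815 without Ctrl replicates 1 and 2, and 0.0733, 0.0731 and 0.0501 when PCBP1-OE replicate 1, 2 or 3 was dropped. Over the alternatives the FDR ran from 1.5e-05, with no filter, to 0.113. The call was also lost with the replicate block (0.113).

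Itga7 (ENSRNOG00000007905, chromosome 7), the other called laminin-receptor subunit and best known from muscle and peripheral nerve, was at 280, 283 and 278 CPM in Ctrl and 253, 254 and 249 CPM in PCBP1-OE. The libraries of each group lay close together and the groups were apart. The log2FC was -0.15 (SE 0.040, 95% interval -0.24 to -0.068, FDR = 0.0339). It lost the call with upper-quartile scaling (0.0520), with the replicate block (0.154) and without any one library other than Ctrl replicate 3 (0.102 to 0.179), in a range of 0.0109 to 0.179.

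The sequences before the annotated starts of Itgb8 and Itga3 are shown because these are the called genes with a promoter entry in the RefSeq table of the assembly GRCr8, whose entries matched 22 of the 28 tested genes. Each line gives the 150 bases just before the start, 5′ to 3′ on the strand of the gene, and capitals mark matches on either strand to GGGCGG, called the GC box, to CCAAT, and to TATAAA, called the TATA box. The Itgb8 stretch lies at chr6:146351246-146351395 on the minus strand and the Itga3 stretch at chr10:80518902-80519051 on the minus strand.
Itgb8: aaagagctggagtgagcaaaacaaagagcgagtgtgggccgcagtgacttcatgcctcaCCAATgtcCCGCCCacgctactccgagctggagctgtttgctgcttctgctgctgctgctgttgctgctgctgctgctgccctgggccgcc
Itga3: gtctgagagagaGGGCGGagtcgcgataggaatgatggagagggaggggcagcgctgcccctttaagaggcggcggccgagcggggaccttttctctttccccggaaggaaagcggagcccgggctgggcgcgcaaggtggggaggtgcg
The Itgb8 stretch held 1 CCAAT and 1 GC box, a few bases apart, followed by a run of CTG repeats, and the Itga3 stretch held 1 GC box and is richer in G and C, at 67.3% against 60.7%. Neither held a TATA box. In the 250 bases before the start, a GC box was found in 9 of the 22 matched genes (40.9%) and in 30.5% of the 33469 promoters in the table, CCAAT in 5 (22.7%) against 34.0%, and a TATA box in 2 (9.09%) against 12.9%. These sets are unlike. The 22 are genes with enough counts, each counted once, and the 33469 are all entries, whether or not the gene was expressed here. A match is a description of these letters and does not show that a factor binds.

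**Figure D2:**
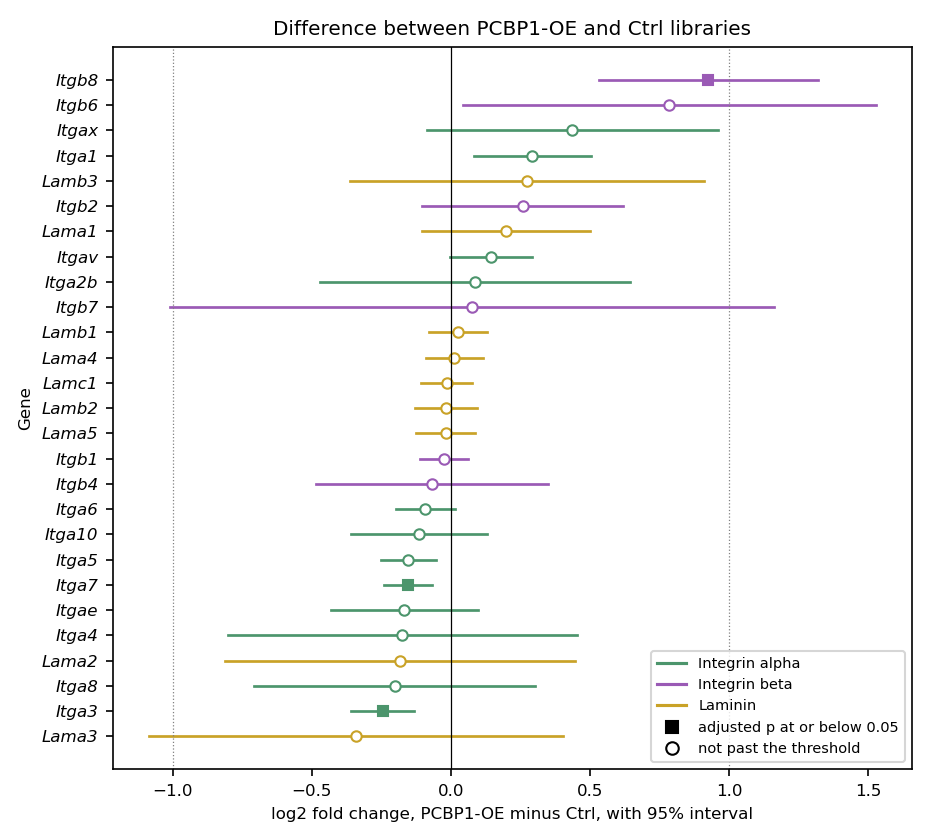
The log2FC (PCBP1-OE minus Ctrl) of 27 of the 28 tested genes, each with its 95% interval from edgeR's quasi-likelihood fit, squares marking an FDR of 0.05 or less and dotted lines 2-fold. Itgb8 at 0.92 stands at the top, and the 5 laminin genes Lamc1, Lama5, Lamb2, Lama4 and Lamb1 have narrow intervals around 0.

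The alpha subunits of the other matrix receptors did not pass the threshold. Itga5 (ENSRNOG00000057451), the fibronectin receptor subunit, was at 79.0, 77.9 and 75.2 CPM in Ctrl and 68.7, 69.3 and 70.6 CPM in PCBP1-OE, without overlap, at a log2FC of -0.15 (SE 0.046) and an FDR of 0.0511. Itga1 (ENSRNOG00000053550), a collagen receptor subunit, was at 23.5, 18.2 and 22.0 CPM and at 25.1, 27.9 and 25.1 CPM, again without overlap, at 0.29 (SE 0.098, FDR = 0.0724). Each passed in 2 of 14 alternatives, both genes without Ctrl replicate 3, Itga5 also with edgeR's exact test and Itga1 also with no filter, in ranges of FDR of 0.0174 to 0.173 and 0.0134 to 0.252. The remaining partners of Itgb1 were not called, namely Itga10, with 290 to 410 counts and an interval of -0.36 to 0.13, Itga4, which binds fibronectin and VCAM-1, with 15 to 24 counts and -0.80 to 0.45, and Itga8, with 34 to 55 counts and -0.71 to 0.30. The neighbor of Itga1 on chromosome 2, the collagen receptor gene Itga2, had 1 to 10 counts per library.

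Itga6 (ENSRNOG00000001518), which binds laminin with either beta 1 or beta 4, was at 246, 243 and 223 CPM in Ctrl and 230, 220 and 218 CPM in PCBP1-OE, so the groups overlapped through Ctrl replicate 3. Its log2FC of -0.092 had a 95% interval of -0.20 to 0.013 (FDR = 0.236). Itgav (ENSRNOG00000004912), the alpha subunit of RGD receptors, was at 62.2, 59.9 and 70.1 CPM and at 72.2, 75.5 and 64.8 CPM, and PCBP1-OE replicate 3 lay below Ctrl replicate 3. Its log2FC was 0.14 (95% interval -0.0035 to 0.29, FDR = 0.186). Both passed the threshold only without Ctrl replicate 3, at 0.0413 and 0.0219.

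Among beta subunits, Itgb1 (ENSRNOG00000010966) was at 814, 801 and 818 CPM in Ctrl and 800, 800 and 789 CPM in PCBP1-OE. The groups were close, with a log2FC of -0.026 and a 95% interval of -0.11 to 0.061, although the groups did not overlap (FDR = 0.719). Itgb6 (ENSRNOG00000008346), an epithelial partner of Itgav that also binds latent TGF-beta, had 11, 11 and 15 counts in Ctrl and 26, 24 and 13 in PCBP1-OE. PCBP1-OE replicates 1 and 2 were above all controls and PCBP1-OE replicate 3 was not, and the log2FC of 0.78 (SE 0.34) had an FDR of 0.154. Itgb4, the hemidesmosome subunit, had 78 to 118 counts, and its interval of -0.48 to 0.35 was too wide to resolve a change of the size seen for Itga3. Itgb7 had 28 counts in Ctrl replicate 3 and 6 to 17 in the other libraries, and its interval was -1.01 to 1.16.

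Subunits known from leukocytes and platelets were counted at low depth. Itgb2 (ENSRNOG00000001224), the beta subunit of leukocyte integrins, was at 2.96, 2.92 and 2.90 CPM in Ctrl and 3.31, 3.62 and 3.57 CPM in PCBP1-OE, without overlap, from 58 to 73 counts. Its log2FC of 0.26 (SE 0.17) had an FDR of 0.338. Its partner Itgax (ENSRNOG00000036703) had 39, 29 and 38 counts in Ctrl and 49, 36 and 56 in PCBP1-OE, overlapping, at a log2FC of 0.44 (SE 0.24, FDR = 0.259). Itgax is a relative of Itgad in the same cluster, and RefSeq lists Itgax as an older name of Itgad. Which gene the count belongs to is therefore uncertain, and this was not tested. Itgae (ENSRNOG00000046639), the E-cadherin-binding subunit of lymphocytes in epithelia, was at 12.3, 12.4 and 11.9 CPM and at 9.57, 12.8 and 10.2 CPM (log2FC -0.17, SE 0.12, FDR = 0.397). The leukocyte marker Ptprc (CD45) had 0 to 3 counts per library, and the 6 matched leukocyte markers, mostly Cd14, summed to 44.2 to 51.3 CPM in Ctrl and 39.0 to 44.3 CPM in PCBP1-OE. The platelet subunit Itga2b had 22 to 45 counts, with an interval of -0.47 to 0.64.

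Of the 10 laminin genes tested, 0 were called by edgeR's quasi-likelihood test, against 9.45% of all genes, so with 10 genes this is near the background. With DESeq2 and limma-voom 0 were called, against 11.2% and 9.48% of all genes. In edgeR 0 had an unadjusted p under 0.05, and the smallest p, that of Lama1, ranked 5979 among the 12624 genes tested. In 0 of the 10 did the groups separate, against 30.6% of all genes. Lamc1, the gamma chain of most laminins, was at 343, 341 and 358 CPM in Ctrl and 338, 352 and 340 CPM in PCBP1-OE, with a 95% interval of the log2FC of -0.11 to 0.077. The intervals were slightly wider for Lama4 (-0.090 to 0.11) and Lama5 (-0.12 to 0.088), the alpha chains of endothelial and of widespread epithelial basement membranes, and for the beta chains Lamb1 (-0.080 to 0.13) and Lamb2 (-0.13 to 0.094). Together with Lamc1 they form the laminins of vessels and of most adult epithelia. Lama1 (ENSRNOG00000017237), the alpha chain of the first laminin of the embryo, was at 48.7, 37.1 and 30.7 CPM in Ctrl and 37.4, 44.7 and 51.4 CPM in PCBP1-OE. Its groups overlapped widely (log2FC 0.20, SE 0.14, FDR = 0.380), and it was called only when no filter was used (0.0272, in a range of 0.0272 to 0.785). Lama3 and Lamb3, chains found in epithelia, had 13 to 27 and 18 to 37 counts, and Lama2, the alpha chain in muscle and peripheral nerve, 19 to 39. Their intervals were wide at this depth, at -0.81 to 0.44 for Lama2, -1.08 to 0.40 for Lama3 and -0.36 to 0.91 for Lamb3.

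For each present integrin pair the reads of the 2 partners were also set against each other within a library, which removes library scaling and compares libraries, not subunit levels, since the genes were not scaled by length. Reads of Itga3 per 100 reads of Itgb1 were 62.3, 57.1 and 53.7 in Ctrl and 49.6, 49.6 and 49.4 in PCBP1-OE. For Itga7 they were 34.4, 35.3 and 34.0 against 31.6, 31.7 and 31.5, and for Itga5 9.71, 9.72 and 9.20 against 8.59, 8.66 and 8.95. All 3 ratios were lower in every PCBP1-OE library than in every control, whereas Itga6 reads per 100 of Itgb1, at 30.2, 30.4 and 27.2 against 28.7, 27.4 and 27.6, overlapped. Itga1 went the other way, at 2.89, 2.27 and 2.69 against 3.14, 3.48 and 3.18.

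Reads of Itgb8 per 100 reads of Itgav were 17.6, 11.2 and 10.8 in Ctrl and 16.9, 23.0 and 28.2 in PCBP1-OE, means of 13.2 ± 3.83 and 22.7 ± 5.66 (SD, n = 3 each). Here Ctrl replicate 1 lay above PCBP1-OE replicate 1, so the ratio overlapped between groups although the level of Itgb8 alone did not. The summed level of the integrin alpha genes was 1238, 1178 and 1144 CPM in Ctrl and 1081, 1083 and 1051 CPM in PCBP1-OE, without overlap, while the sums of the beta genes and of the laminin genes overlapped. Most of the fall in the alpha sum came from Itga3 (means 468 and 395 CPM) and Itga7 (280 and 252 CPM). The log2FC was above 0 for 4 of the 12 alpha genes tested. Of 15 ratios, 5 did not overlap between groups, beside 30.6% of all single genes tested, which is a different measure. Itgb1 itself differed little (log2FC -0.026), so the ratios to Itgb1 largely repeat the levels of their alpha genes. The 5 ratios without overlap had a two-sided exact permutation p of 0.1 (0.300 after Benjamini-Hochberg adjustment over the 15), and 0.1 is the smallest p that 3 libraries against 3 allow. The ratio of Itgb8 to Itgav had an exact permutation p of 0.2 (0.375 adjusted).

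**Figure D3:**
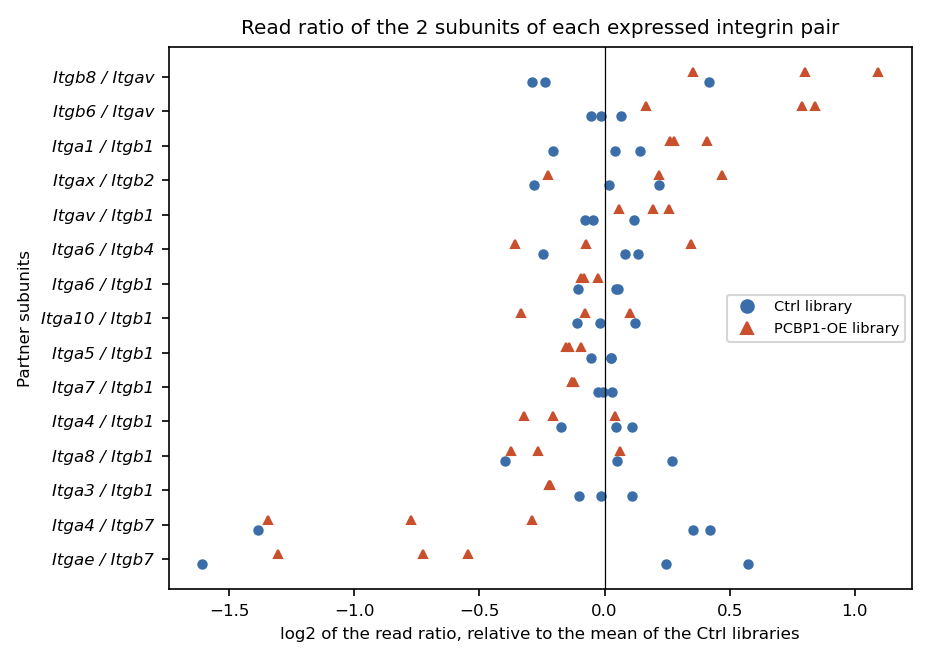
Read ratio of the partner subunits of each of the 15 present integrin pairs in every library, on a log2 scale relative to the mean of the Ctrl libraries (circles Ctrl, triangles PCBP1-OE). The triangles of Itga3, Itga7 and Itga5 over Itgb1 lie left of their circles, those of Itga1 over Itgb1 and Itgb6 over Itgav lie right, and the ratios to Itgb7 spread widest, Itgb7 having 6 to 28 counts per library.

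A list of 69 genes of integrin ligands, basement membrane partners, focal adhesion proteins and other integrin-associated proteins was compared as well. From this list 67 were matched and 59 tested. Of these, 11 (18.6%) were called, against 9.45% of all genes tested, with 3 higher and 8 lower in PCBP1-OE and none at 2-fold. The groups did not overlap in 26 of the 59 (44.1%), against 30.6% of all genes, and the median log2FC of the list was -0.051. With 1 library left out, the number called ran from 0 (without Ctrl replicate 2 or PCBP1-OE replicate 1) to 21 (without Ctrl replicate 3), and was 1 without Ctrl replicate 1 or PCBP1-OE replicate 2 and 7 without PCBP1-OE replicate 3. The share called over all genes moved as well, at 1.92%, 0.375% and 22.3% without Ctrl replicates 1, 2 and 3. Without PCBP1-OE replicates 1, 2 and 3 that share was 1.32%, 1.06% and 5.42%.

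The called matrix genes were Thbs1, which rose, and Tnc, Lgals3 and Lgals1, which fell. Thrombospondin-1, the product of Thbs1, binds several integrins and activates latent TGF-beta, and its gene was at 47.6, 42.3 and 66.8 CPM in Ctrl and 77.9, 77.8 and 67.4 CPM in PCBP1-OE. Ctrl replicate 3 lay just under PCBP1-OE replicate 3, and the log2FC was 0.51 (SE 0.12, FDR = 0.0276). Tnc, the matrix glycoprotein tenascin-C, was at 998, 922 and 910 CPM and at 827, 820 and 787 CPM, a log2FC of -0.22 (SE 0.047, FDR = 0.0184). Lgals3, a galectin that crosslinks the sugars of laminins and integrins, was at 282, 289 and 261 CPM in Ctrl and 231, 242 and 244 CPM in PCBP1-OE (log2FC -0.22, FDR = 0.0201).

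Dag1, which encodes dystroglycan, the main laminin receptor that is not an integrin, fell from 467, 472 and 473 CPM to 423.4, 420.7 and 405 CPM. Its groups were far apart relative to their spread, at a log2FC of -0.18 (SE 0.041, FDR = 0.0223).

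Among the genes listed as adaptors and signaling proteins, 45 were tested and 6 called (13.3%), against 9.45% of all genes tested. Lims1 (PINCH1), which joins integrin-linked kinase and parvin in one complex, rose from 5.41, 4.79 and 6.38 CPM to 9.35, 7.53 and 9.75 CPM (log2FC 0.68, SE 0.15, FDR = 0.0195). Tns1, a tensin that links integrins to actin, rose from 11.8, 8.14 and 8.47 CPM to 13.9, 14.97 and 13.9 CPM (0.59, SE 0.14, FDR = 0.0220). Parva, the parvin of the same complex as Lims1, fell from 241, 242 and 243 CPM to 216, 218 and 214 CPM (-0.16, SE 0.040, FDR = 0.0281), and Cib1, which binds the tails of alpha subunits, fell by 0.19 on the log2 scale (SE 0.046, FDR = 0.0266). Vcl (vinculin) and Itgb3bp were also called lower. Itgb3, the subunit for which Itgb3bp is named, had only 4 to 8 counts per library and was not tested. The talin gene Tln1, the kindlin gene Fermt2, the focal adhesion kinase gene Ptk2 and paxillin (Pxn) were not called, with log2FCs of -0.022, 0.079, 0.088 and -0.044. Of the 8 called genes given with values here, all lost the call without Ctrl replicate 2 (FDR 0.0716 to 0.160) and without PCBP1-OE replicate 1 (0.0600 to 0.120). All 8 also lost the call with the replicate block (0.0908 to 0.141). Dag1 and Parva kept it in only 1 of the 6 fits that leave out 1 library, the fit without Ctrl replicate 3. Thbs1 also lost it with DESeq2 (0.0920).

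**Figure D4:**
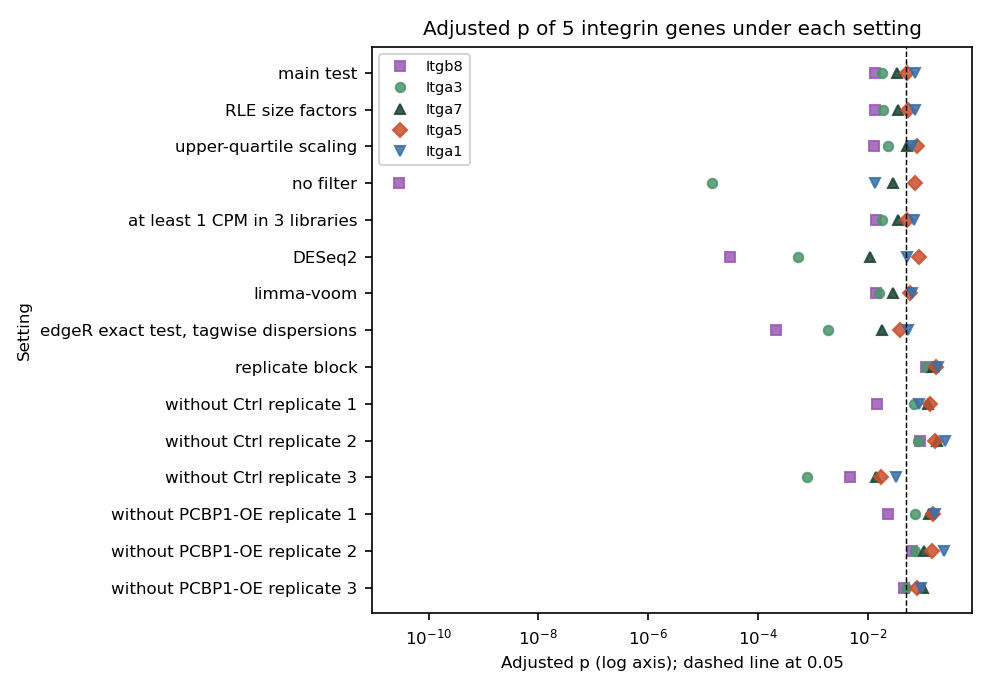
FDR (adjusted p) on a log axis for Itgb8, Itga3, Itga7, Itga5 and Itga1 under the main test and 14 alternatives, with a dashed line at 0.05. All 5 lie right of the line with the replicate block and without Ctrl replicate 2, and left of it without Ctrl replicate 3.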

How the data were processed

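RNA-seq was done on PC12 cells with 3 Ctrl and 3 PCBP1-OE libraries. The authors trimmed reads, aligned them with TopHat2 and deposited raw counts of uniquely mapped reads per gene. The methods name the rat build Rnor_6.0, whereas the labels' processing notes name a human build, and the gene identifiers are those of rat. Which tool counted the reads, from which annotation release and whether by strand, is not given in the sources used here. The labels name a stranded Vazyme kit and the methods a KAPA kit.

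The deposited counts were fitted over all genes with edgeR 4.0.16 (TMM scaling, filterByExpr with a minimum count of 10 and a total of 15, quasi-likelihood test, R 4.3.3), the group being the only term, and p-values were adjusted by Benjamini-Hochberg over the 12624 genes tested, with calls at 0.05. The fit was tested on simulated data. Ratios of partner subunits were compared by two-sided exact permutation tests. Standard errors and 95% intervals came from the fit, and normalized CPM from TMM library sizes. At this depth the half-width of the log2 interval was 0.086 to 0.30 for the 13 members with at least 300 counts in every library and 0.36 to 1.09 for the 10 with under 100. Alternatives were other scalings, no filter or a stricter one, DESeq2 1.42.0, limma-voom (limma 3.58.1), edgeR's exact test, a replicate block and leaving out each library.

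The members, gene lists and tests were chosen with earlier results of these data known. Genes were named with full values if called and, up to 12 members, next by unadjusted p, with the 5 called genes of smallest adjusted p in each direction from the adhesion list. A further part of this rule, the 6 members of highest level per length, could not be applied, as exon lengths were not used here. Other genes were named to account for every member, after their values were seen. Promoter sequences are from RefSeq on GRCr8, a build other than that of the counts, and were matched by symbol. One laminin gene that was tested is counted in the totals, and its values are not reported here.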

Additional observations from a re-analysis of the deposited data

How the results depend on the processing

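The number of integrin and laminin genes called higher in PCBP1-OE was 1 and became 3 with no filter, 0 with the replicate block and 0 to 3 with 1 library left out. The number called lower was 2 and became 1 with upper-quartile scaling, 0 with the replicate block and 0 to 4 with 1 library left out. The adhesion list had 11 calls, 0 with the replicate block and 0 to 21 with 1 library left out. The median log2 fold change of the integrin and laminin genes was -0.030 to 0.018 with 1 library left out, the highest being without Ctrl replicate 3. The number of present pairs and trimers was 27, with 37 when no filter was used and 20 with the stricter filter. Over all genes, 1193 were called, against 16 with the replicate block and 48 to 2860 with 1 library left out. None of the 12 named integrin and laminin genes changed direction in the alternatives run, 14 for each gene except Itgb6, which the stricter filter removed and which had 13.

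Replicates with the same number did not deviate together (r = -0.104, -0.0813 and -0.107 over genes, against 0.015 to 0.083 for other pairs). These deviations are from means of 3 libraries, so the r values cannot exclude that the numbers mark shared cultures or batches. The calls lost under the block therefore remain a limit of these results. With 3 libraries a group and low counts, small changes in the members under 100 counts were not detectable.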
